A study of Mus musculus with 6 samples.

Results

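Krt7, Krt8, Krt18 and Krt19 are the keratins of simple epithelia. They were taken as the 4 matrix rows that carry these symbols, of 31055 features counted in sorted neoplastic cells from mouse lung tumors. Keratins are intermediate filament proteins that polymerize only as pairs of a type I and a type II chain. Krt18 and Krt19 are type I chains, Krt7 and Krt8 are type II chains, and Krt8 with Krt18 is the typical pair of single-layered epithelia. In the lung, simple keratins line alveoli and airways, and high Krt8 is known from the intermediate state through which alveolar type II (ATII) cells pass on the way to alveolar type I (ATI) cells.

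Tumors were initiated with Lenti-Cre in 6 mice that all carried Lkb1XTR/XTR and Rosa26LSL-tdTomato, and were left to grow for 20 weeks. In the Lkb1XTR allele Cre turns on a gene trap that ends in GFP within Lkb1 (Stk11), and the recombinase FLPo-ERT2, where a mouse carries it, removes the trap after tamoxifen. The 3 Restored mice (2 male, 1 female) all carried FLPo-ERT2 and received tamoxifen at 4 mg doses for 2 weeks. The 3 NonRestored mice (2 male, 1 female) were mixed: 1 received tamoxifen without FLPo-ERT2, 1 vehicle without FLPo-ERT2, and 1 vehicle with FLPo-ERT2. All 6 mice therefore shared Lkb1 inactivation at tumor initiation and the tdTomato reporter, and none had intact Lkb1 throughout. Live cells were sorted without CD45, CD31, F4/80 and Ter119, and loaded for 10x 3′ sequencing where 8000 recovered cells were aimed for in each sample. The deposited matrix held 16017 cells as 1 pool. The columns were not tied to mice here, so the pool counted as 1 sample, Restored and NonRestored mice were not compared, and no value below has a replicate or a test.

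Cells with at least 500 genes and at most 20% mitochondrial UMIs (unique molecular identifiers, each standing for 1 captured transcript) were kept, which left 12183 cells and 257163522 UMIs. The median cell held 19348 UMIs, with a range of 671 to 125731. A tdTomato UMI was present in 99.3% of kept cells. It was also present in 84.7% of 327 cells with fibroblast, endothelial or immune markers and no UMI of Epcam or Cdh1. A single tdTomato UMI therefore did not set tumor cells apart. Levels are UMIs of a gene per 1000000 UMIs of a group of cells (CPM), and intervals are 95% counting intervals that do not cover differences between mice. The 3′ assay reads 1 tag per molecule, so levels of different keratins were set side by side without division by transcript length.

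Cells were binned by 2 alveolar markers that were not among the keratins. Sftpc encodes surfactant protein C of ATII cells, and cells were called Sftpc-low (under 100 UMIs per 10000), Sftpc-mid (100 to 500) or Sftpc-high (500 or more). Hopx encodes a homeodomain protein of ATI cells, and cells were called Hopx-low (under 2 UMIs per 10000), Hopx-mid (2 to 15) or Hopx-high (15 or more). The Sftpc-high bin held 8528 cells, the Sftpc-mid bin 1379 and the Sftpc-low bin 2276. Defining markers of other cell types were concentrated among Sftpc-low cells: of 466 kept cells with fibroblast, endothelial, immune or ciliated markers, 396 were among the 1092 Sftpc-low Hopx-low cells and 50 among the 611 Sftpc-low Hopx-mid cells. None of the 573 Sftpc-low Hopx-high cells carried them. The summed level of the fibroblast markers (Col1a1, Col1a2, Col3a1, Mgp) was 7765 CPM in Sftpc-low Hopx-low cells, against 143 CPM in Sftpc-low Hopx-mid and 9.68 CPM in Sftpc-low Hopx-high cells. The keratin levels and ratios of the Sftpc-low bin are therefore given for all kept cells and, where this moved a value by over 1.5 times or changed its direction or call, also without the cells that carry such markers. Club cell markers (Scgb1a1, Scgb3a1, Scgb3a2, Cyp2f2) summed to 6676 CPM in Sftpc-low Hopx-low cells against 120 CPM in Sftpc-high Hopx-low cells, with 99.2% of the former in 10 cells. Only 4 cells of the former bin met the club marker rule, and without them the sum there was 76.8 CPM. Club marker cells stay in all values unless stated.

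Krt8 and Krt18, 1 chain of each type, are neighbors in the mouse genome. In the GRCm38 build (GENCODE M21 annotation) Krt8 (ENSMUSG00000049382) spans chr15:101996698-102004482 on the minus strand with 9 exons, and Krt18 (ENSMUSG00000023043) spans chr15:102028180-102032027 on the plus strand with 7 exons. The gap between them is 23697 bp and holds 0 annotated genes. Krt7 (ENSMUSG00000023039, chr15:101411043-101430313, plus strand, 9 exons) lies on the same chromosome, 566384 bp from Krt8 with 42 genes between. Krt19 (ENSMUSG00000020911, chr11:100140810-100148665, minus strand, 6 exons) is on another chromosome. Krt7 overlaps Gm671 and Krt8 overlaps Gm36026, and the only other annotated gene at 95% identity or more to a member transcript over 200 bp was the pseudogene Krt8-ps, which is not a row of the matrix.

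Because the 4 genes moved together across cells from 2 chromosomes, the start regions of the 3 members listed in the RefSeq promoter table (GRCm38.p6) are shown, from 250 bases before to 50 bases after the annotated start, 5′ to 3′ on the gene's strand. Krt19 is named only. Capitals mark matches to a GC box (GGGCGG, read on both strands as GGGCGG or CCGCCC) in Krt7 and to a TATA motif (TATAAA, both strands, the matches overlapping) in Krt8. The Krt7 window is chr15:101412153-101412452, the Krt8 window chr15:102004293-102004592 and the Krt18 window chr15:102027966-102028265.
Krt7: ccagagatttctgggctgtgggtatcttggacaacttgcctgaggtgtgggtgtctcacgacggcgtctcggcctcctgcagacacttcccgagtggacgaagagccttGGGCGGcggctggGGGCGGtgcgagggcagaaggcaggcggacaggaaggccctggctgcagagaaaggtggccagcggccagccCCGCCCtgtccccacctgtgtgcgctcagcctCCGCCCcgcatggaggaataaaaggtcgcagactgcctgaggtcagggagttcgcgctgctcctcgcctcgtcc
Krt8: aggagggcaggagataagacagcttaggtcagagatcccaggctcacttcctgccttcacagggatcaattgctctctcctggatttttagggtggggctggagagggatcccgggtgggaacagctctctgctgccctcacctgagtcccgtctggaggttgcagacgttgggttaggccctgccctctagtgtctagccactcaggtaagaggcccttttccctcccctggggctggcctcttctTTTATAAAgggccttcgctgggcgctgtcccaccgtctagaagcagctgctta
Krt18: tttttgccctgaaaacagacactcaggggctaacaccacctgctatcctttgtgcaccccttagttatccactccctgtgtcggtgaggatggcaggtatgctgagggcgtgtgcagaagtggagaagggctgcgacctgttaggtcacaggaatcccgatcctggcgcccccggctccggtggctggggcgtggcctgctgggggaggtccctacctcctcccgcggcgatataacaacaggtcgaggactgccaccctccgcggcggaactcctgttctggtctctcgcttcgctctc
The Krt7 window held 4 GC box matches, at -141, -128, -56 and -24, the Krt8 window 2 overlapping TATA matches at positions -3 and -1 from the annotated start, which they span, and the Krt18 window none of the 5 motifs searched, which also included the AP-1 letters TGANTCA, the TEAD letters GGAATG and the CCAAT box. Among all 32851 RefSeq promoter windows of the same length, 35.66% held the GC box, 13.62% TATAAA, 7.808% TGANTCA, 14.66% GGAATG and 37.41% CCAAT. The matches describe letters in these windows only.

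Over all kept cells Krt18 was the most abundant member at 1175 CPM, followed by Krt8 at 1078 CPM, Krt7 at 576 CPM and Krt19 at 456 CPM. Together they held 844776 UMIs, or 3285 CPM. These UMIs were spread unevenly over cells. The median cell held 14.8 keratin UMIs per 10000, the highest cell held 1019, and the decile of cells with the highest summed level held 50.5% of all keratin UMIs. Krt18 was the most evenly spread member, with 48.3% of its UMIs in its top decile of cells, and Krt19 the least, with 55.1%. After each cell was thinned to 5000 UMIs, possible for 11084 cells and not for 1099, the variance of the summed count was 30.9 times its mean. For single members this ratio was 7.44 for Krt7, 12.4 for Krt8, 11.7 for Krt18 and 6.90 for Krt19, where counts that varied by sampling alone would have a ratio of 1.

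Every member was higher the lower the surfactant level. Krt7, a type II chain that marks simple ducts and many adenocarcinomas, was at 1669 CPM in Sftpc-low, 1253 CPM in Sftpc-mid and 274 CPM in Sftpc-high cells. Krt8 was at 2822, 2185 and 593 CPM in the same order, and its usual partner Krt18 at 2930, 2293 and 688 CPM. Krt19, a type I chain known from progenitor and ductal epithelia, was at 1322, 968 and 220 CPM. The step between the Sftpc-mid and Sftpc-high bins was thus larger than that between Sftpc-low and Sftpc-mid for each member. The Sftpc-low over Sftpc-high ratio was 6.10 for Krt7 (95% interval 6.03 to 6.17), 6.02 for Krt19, 4.76 for Krt8 and 4.26 for Krt18. For the sum it was 4.93 (4.90 to 4.95). Without the cells that carried markers of other types these ratios were 7.41 for Krt7, 7.19 for Krt19, 5.74 for Krt8, 5.17 for Krt18 and 5.96 for the sum, in the same order.

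All 4 members were at least 2-fold higher in Sftpc-low cells, beside 17.3% of the 8984 genes at 10 CPM or more in either bin. The median log2 ratio of those genes was 0.44, against 2.30 for the keratin sum. Of the lists of cell state markers without keratins, 11 of 12 transitional genes and 9 of 12 ATI genes were past 2-fold in the same direction. Sftpc set the bins, and the 11 other ATII genes were all at least 2-fold lower (8684 against 60046 CPM summed). Over all tested genes 3.86% were at least 2-fold lower. Of 6 proliferation genes 0 were higher and 0 lower. Without the cells with other-type markers 12 of 12 transitional and 9 of 11 ATI genes were higher, and 11 of 11 ATII genes other than Sftpc lower. Of 6 proliferation genes 0 were then higher and 3 lower. The share of all tested genes lower without those cells is not given here. Without the cells that carried markers of other types, the 4 members were again past 2-fold, beside 13.0% of 8471 genes, and the log2 ratio of the sum was 2.57. In Hopx-low cells alone the ratio of the sum was 5.68, or 8.02 without the cells with other-type markers, and in Hopx-high cells alone it was 1.68 both with and without them. The Sftpc-low and Sftpc-high cells also differed in depth, with medians of 14605 and 21376 UMIs, and the part of depth in the ratio was not tested. Within Sftpc-high Hopx-low cells, the quartile of cells with the fewest UMIs (median 9069) was at 1251 CPM of summed keratin and the quartile with the most (median 37427) at 1757 CPM.

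**Figure D1:**
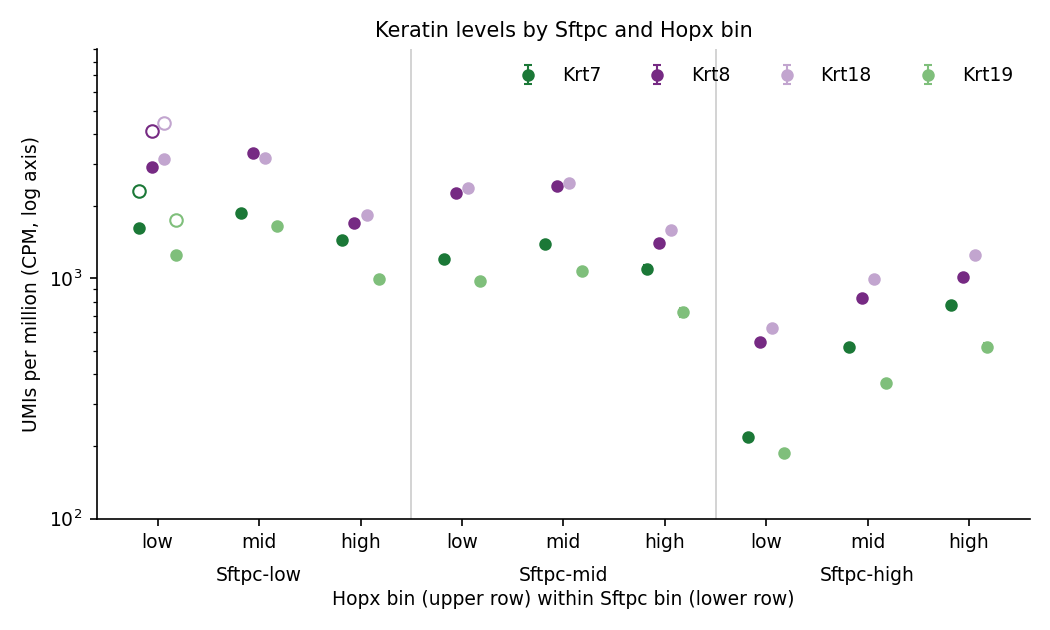
Levels of Krt7, Krt8, Krt18 and Krt19 (CPM) in the 9 bins of Sftpc by Hopx, on a log axis, with 95% counting intervals that are mostly smaller than the points. Filled points are all kept cells and open points are Sftpc-low Hopx-low cells without markers of other types. Every member was lowest in the Sftpc-high Hopx-low cells (219, 542, 621 and 187 CPM).

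The order of the 9 bins was nearly shared by the members. In Sftpc-high Hopx-low cells, the most numerous bin with 7067 cells, Krt7 was at 219 CPM, Krt8 at 542, Krt18 at 621 and Krt19 at 187 CPM. Each member peaked in Sftpc-low Hopx-mid cells, where Krt7 reached 1878 CPM, Krt8 3329 CPM, Krt18 3167 CPM and Krt19 1648 CPM. This was the 1 bin of the 9 in which Krt8 exceeded Krt18, with a Krt18 to Krt8 ratio of 0.952 against 1.09 in all cells. The peak held only with the other-type cells in the pool: the 696 Sftpc-low Hopx-low cells without markers of other types were at 2309 CPM for Krt7, 4103 for Krt8, 4447 for Krt18 and 1750 for Krt19. The 561 such Sftpc-low Hopx-mid cells were lower for each member, at 1982, 3461, 3328 and 1698 CPM.

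The Hopx-high to Hopx-low ratio of the keratins lay above 1 in Sftpc-high and below 1 in Sftpc-low cells. Among Sftpc-high cells, Hopx-high cells had more of each member than Hopx-low cells, by 3.55-fold for Krt7, 2.76-fold for Krt19, 2.02-fold for Krt18 and 1.86-fold for Krt8. The ratio of the sum was 2.27 (2.24 to 2.30), from 1569 CPM in Hopx-low through 2713 CPM in Hopx-mid to 3561 CPM in Hopx-high cells. Krt7, Krt18 and Krt19 were past 2-fold here, beside 7.11% of 8068 genes tested, whose median log2 ratio was 0.20.

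Among Sftpc-low cells the ratio lay below 1 for each member. Hopx-high over Hopx-low was 0.888 for Krt7, 0.794 for Krt19, 0.590 for Krt8 and 0.584 for Krt18, and 0.671 for the sum (5984 against 8918 CPM). None of the 4 members was at least 2-fold lower, beside 13.8% of 9262 genes tested. Without the cells that carried markers of other types the sum was 0.475 of the Hopx-low level, and Krt8 (0.416) and Krt18 (0.412) were past 2-fold, beside 7.41% of 8594 genes, while Krt7 was at 0.626 and Krt19 at 0.569. Hopx-mid cells were at 1.12 times the summed level of Hopx-low cells with the other-type cells in the pool and at 0.830 times without them. Removal of those cells therefore turned this last comparison around. It also turned the rank correlation with Hopx across Sftpc-low cells. In all 1846 thinned cells Spearman's rho with Hopx was 0.19 for Krt7, 0.11 for Krt19, 0.01 for Krt8 and 0.01 for Krt18. In the 1485 without other-type markers it was -0.17 for Krt7, -0.26 for Krt19, -0.45 for Krt8 and -0.48 for Krt18. In Sftpc-high cells rho with Hopx was 0.29 for Krt7, 0.17 for Krt19, 0.16 for Krt18 and 0.12 for Krt8 (8237 cells).

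Cells with fibroblast or endothelial markers had low but measurable keratin. The 238 cells with fibroblast markers were at 67.9 CPM for Krt8 and 61.7 CPM for Krt18, and the 107 with endothelial markers at 71.2 and 72.4 CPM. A stricter set of 327 cells with fibroblast, endothelial or immune markers and no UMI of Epcam or Cdh1 served as the type that should lack keratins, with 13.1 CPM of Krt7, 24.8 of Krt8, 25.6 of Krt18 and 22.4 of Krt19. Of these 327 cells, 322 were Sftpc-low. In cells with immune markers Krt19 was at 263 CPM, against 82.5 CPM for Krt8. In the 20 immune cells of the stricter set it was at 229 CPM, from 69 of the 111 Krt19 UMIs of the whole set. Of the 14 of them that could be thinned, 28.6% had a Krt19 UMI and 0% a UMI of the other members. Without these 20 cells the set was at 9.01 CPM of Krt19, 13.3 of Krt7, 26.2 of Krt8 and 26.8 of Krt18. The 46 cells with ciliated markers, which are epithelial, were at 1281 CPM for Krt8, 974 for Krt19, 578 for Krt18 and 198 for Krt7, a summed 3032 CPM. In the 19 cells with club cell markers Krt8 was at 701, Krt18 at 489, Krt19 at 469 and Krt7 at 194 CPM. In ciliated cells Krt19 thus exceeded Krt18, whereas in all kept cells Krt18 exceeded Krt19 by more than its counting interval.

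The distribution of the sum over single cells was broad within each bin. Among the 1830 Sftpc-low cells without markers of other types, the median was 62.8 keratin UMIs per 10000, with quartiles of 34.4 and 109. The Sftpc-mid cells had a median of 34.6 with quartiles of 17.1 and 63.0, and the Sftpc-high cells a median of 11.7 with quartiles of 7.29 and 20.2. The lower quartile of the first set lay above the upper quartile of the Sftpc-high cells. The tails overlapped, since 5% of the Sftpc-low cells were below 12.1 and 5% of the Sftpc-high cells above 47.7 per 10000.

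**Figure D2:**
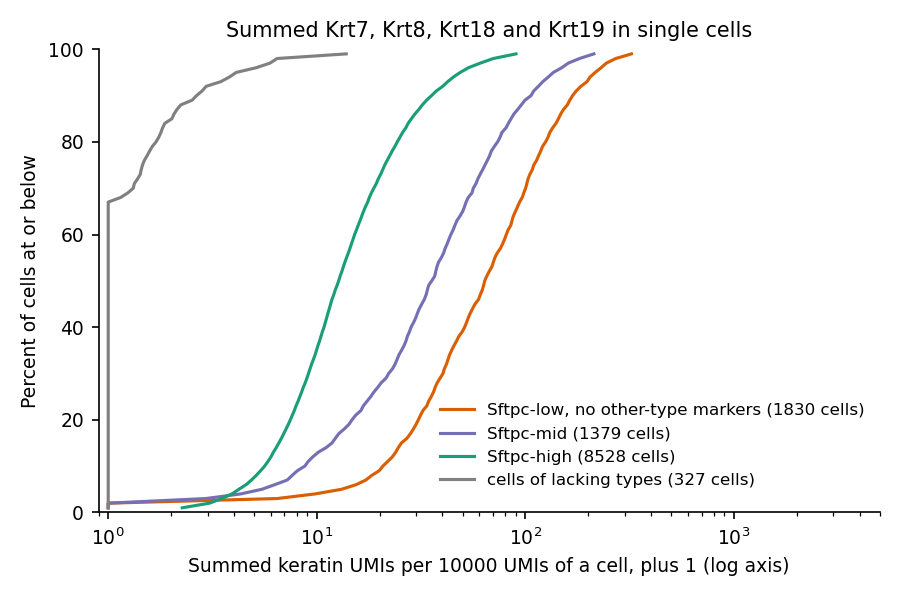
Percent of cells at or below each summed keratin level (UMIs per 10000 plus 1, log axis), from the first to the 99th percentile, for Sftpc-low cells without markers of other types, Sftpc-mid cells, Sftpc-high cells and the cells used as lacking keratins. The medians were 62.8 in Sftpc-low, 34.6 in Sftpc-mid and 11.7 in Sftpc-high cells, and the distributions overlapped.

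Detection of the members was compared after thinning. In all thinned cells a UMI was present in 85.8% for Krt18, 82.6% for Krt8, 61.3% for Krt7 and 57.1% for Krt19, and without thinning in 93.0%, 92.1%, 81.7% and 78.6%. In the type that should lack keratins the thinned shares were 4.94% for Krt18, 5.76% for Krt8, 2.88% for Krt7 and 3.70% for Krt19. The median depths were 19348 UMIs over all cells and 13311 UMIs in that type before thinning. Hopx-high cells had a Krt7 UMI in 97.1% and a Krt19 UMI in 85.9% of cells. In Sftpc-high cells as a whole the shares were 53.9% and 49.1%. These groups differed in Sftpc as well as Hopx and overlapped. Of the 1083 kept Hopx-high cells, 573 were Sftpc-low and 280 Sftpc-high.

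Most cells carried several members at once. In all thinned cells, 39.1% had UMIs of all 4 members, 25.8% of 3, 21.7% of 2, 9.47% of 1 and 3.91% of none. All 4 were present in 27.1% of Sftpc-high, 74.1% of Sftpc-mid and 73.9% of Sftpc-low cells, and in 90.4% of Sftpc-low cells without other-type markers. Deep enough to thin were 8237 of 8528 Sftpc-high, 1001 of 1379 Sftpc-mid and 1846 of 2276 Sftpc-low cells. The shares leave out the shallower cells of each bin. The Sftpc-low cells split: 13.7% had none of the 4, against 2.12% of Sftpc-high cells, and in Sftpc-low Hopx-low cells the share with none was 29.6%. In the 524 thinned Sftpc-low Hopx-low cells without other-type markers it was 0.573%, and 90.3% had all 4. Over all Sftpc-low cells without such markers it was 0.202%. In the type that should lack keratins 86.0% had none and 0.412% had all 4.

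**Figure D3:**
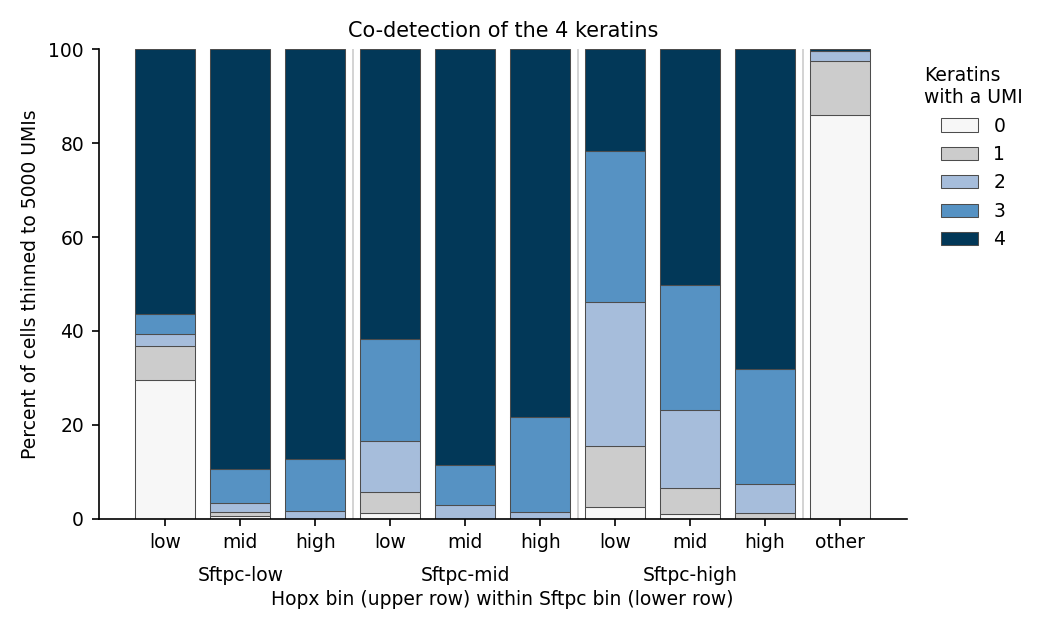
Share of thinned cells (%) with UMIs of 0, 1, 2, 3 or all 4 of the keratins, by Sftpc and Hopx bin and, in the bar marked other, in the cells used as lacking keratins. The share with all 4 was 21.7% in Sftpc-high Hopx-low and 89.5% in Sftpc-low Hopx-mid cells. Cells with other-type markers are included in the bins.

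Within the Sftpc-high cells, co-detection rose with Hopx. The share with all 4 members was 21.7% in Hopx-low, 50.3% in Hopx-mid and 68.2% in Hopx-high cells. In Sftpc-low cells it was 56.5%, 89.5% and 87.4%, the first and second values including cells with other-type markers. Without those cells it was 90.3% in Hopx-low and 93.6% in Hopx-mid cells. The Hopx-low share then lay above the Hopx-high share. A Krt18 UMI was present in 90.5% of cells with a Krt8 UMI and in 63.6% of cells without. For Krt19, the shares were 70.2% of cells with and 36.3% of cells without a Krt7 UMI. In Sftpc-high Hopx-low cells the Krt18 shares with and without a Krt8 UMI were 86.3% and 73.9%. In Sftpc-low Hopx-low cells they were 97.6% and 5.23% with the cells of other types included. Without those cells 99.6% of cells with a Krt8 UMI had Krt18, and just 9 of 524 cells had no Krt8 UMI, 5 of them with Krt18.

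Type I and type II chains were nearly level in the pool. Krt18 and Krt19 together held 49.7% of the keratin UMIs (49.6 to 49.8%). The share was 48.6% in Sftpc-low, 48.7% in Sftpc-mid and 51.1% in Sftpc-high cells, and over the 9 bins it ranged from 47.3% in Sftpc-low Hopx-high to 51.5% in Sftpc-high Hopx-low cells. The balance of chain types thus moved by a few percentage points while the summed level moved several-fold. This ratio is of transcripts captured at the 3′ end, and protein was not measured here.

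The mix within the types moved more. Krt7 and Krt19 jointly held 31.4% of the keratin UMIs in all cells, 25.9% in Sftpc-high Hopx-low cells and 40.8% in Sftpc-low Hopx-high cells. Krt7 per Krt8 was 0.534 in all cells, 0.404 in Sftpc-high Hopx-low, 0.814 in Hopx-high and 0.846 in Sftpc-low Hopx-high cells. Krt19 per Krt18 was 0.388 in all cells. Krt19 per Krt7 was 0.793 in all cells and 0.676 in Hopx-high cells, so that Krt7 exceeded Krt19 by more where Hopx was high.

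**Figure D4:**
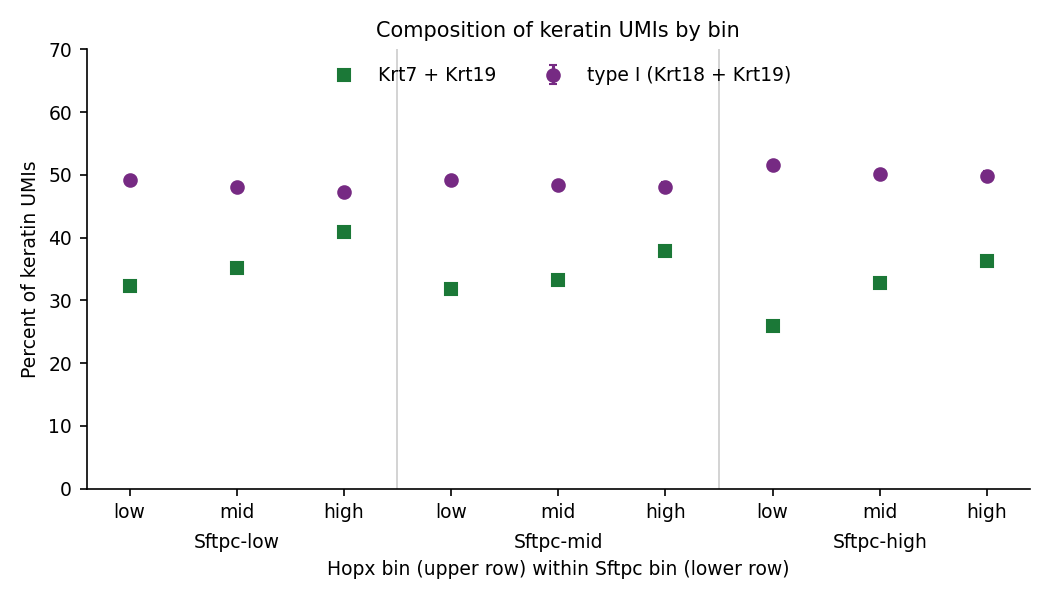
Share of keratin UMIs (%) held by Krt7 plus Krt19 (squares) and by the type I chains Krt18 plus Krt19 (circles, with 95% counting intervals within the points), in the bins of Sftpc by Hopx. The type I share stayed between 47.3% and 51.5%, and the share of Krt7 plus Krt19 went from 25.9% to 40.8%.

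The balance was looser in single cells than in the pool. Among the 7316 cells with at least 20 keratin UMIs (median 51), the type I share had a median of 50.8% and quartiles of 43.5% and 58.6%. Its SD across cells was 11.8 percentage points, where binomial counting alone would give 7.32 points. The mean squared deviation of single cells from the pooled share was 2.63 times its binomial expectation for the type I share, and 4.21 times for the share of Krt7 plus Krt19. A type I share under 25% or over 75% was seen in 245 cells (3.35%). The median share of Krt7 plus Krt19 was 25.5% in Sftpc-high, 34.8% in Sftpc-low and 43.5% in Sftpc-low Hopx-high cells.

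GFP marks the trapped Lkb1 allele and Stk11 is the transcript that the trap interrupts, so cells were also classed by which of these had a UMI: 3360 had GFP only, 3367 Stk11 only, 29 both and 5427 neither. These are classes of cells by a transcript seen and not groups of mice, and the class and the mouse a cell came from cannot be told apart. Cells with neither were shallower (median 12780 UMIs, against 24516.5 with GFP only and 23635 with Stk11 only).

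GFP-only cells held more of each keratin. Over all cells the GFP-only to Stk11-only ratio was 2.82 for Krt7, 2.80 for Krt19, 2.69 for Krt8 and 2.44 for Krt18. Among Sftpc-high cells, 2216 GFP-only cells were at 430 CPM for Krt7, 868 for Krt8, 950 for Krt18 and 332 for Krt19, and 2811 Stk11-only cells at 171, 407, 516 and 147 CPM. The ratios were 2.51, 2.13, 1.84 and 2.26, and 2.08 for the sum, at median depths of 25360.5 and 24623 UMIs. Krt7, Krt8 and Krt19 were past 2-fold, beside 2.19% of 7804 genes tested. Within Sftpc-high Hopx-low cells the same 3 members were past 2-fold, beside 2.15% of 7727 genes. None of the 4 was past 2-fold in Sftpc-high Hopx-mid cells (1.98 for Krt7, 1.97 for Krt8, 1.93 for Krt19 and 1.86 for Krt18, beside 2.38% of 8033 genes past it). None was in Sftpc-high Hopx-high cells either (1.48, 1.92, 1.82 and 1.73 in the same order, beside 3.56% of 8125 genes). Of the other lists in this comparison of Sftpc-high cells, 8 of 8 proliferation genes, 4 of 11 transitional genes and 0 of 7 ATI genes were at least 2-fold higher in GFP-only cells.

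The median Sftpc level also differed between these classes of Sftpc-high cells, at 1266 UMIs per 10000 in GFP-only and 1679 in Stk11-only cells. Narrower Sftpc strata were therefore compared within Sftpc-high Hopx-low cells. At 500 to 1000 Sftpc UMIs per 10000, the keratin sum was 3727 CPM in 425 GFP-only and 2220 CPM in 166 Stk11-only cells, a ratio of 1.68. The depths there were unequal, with medians of 21055 UMIs in GFP-only and 12570 UMIs in Stk11-only cells, and the part of depth in that ratio was not tested. In the higher strata the medians were 25354.5 and 21934.5, 28419 and 26443, and 28236.5 and 26262 UMIs. The ratio was 1.64 at 1000 to 1500, 1.63 at 1500 to 2000 and 1.24 at 2000 or more, the last with 66 GFP-only cells. Within each class the sum fell from stratum to stratum as Sftpc rose, from 3727 to 1029 CPM in GFP-only and from 2220 to 829 CPM in Stk11-only cells. Most 2-fold calls of single members were lost within these strata. Krt7 was past 2-fold in the third stratum (2.27) and at 1.99, 1.91 and 1.59 in the others, and no other member was past it in any stratum. Over all genes tested, from the lowest to the highest stratum, 1.67%, 1.27%, 1.25% and 1.44% were at least 2-fold higher in GFP-only cells. Krt19 was at 1.85, 1.86, 1.77 and 1.23, Krt8 at 1.61, 1.68, 1.67 and 1.30, and Krt18 at 1.58, 1.46, 1.42 and 1.11 from the lowest to the highest stratum.

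**Figure D5:**
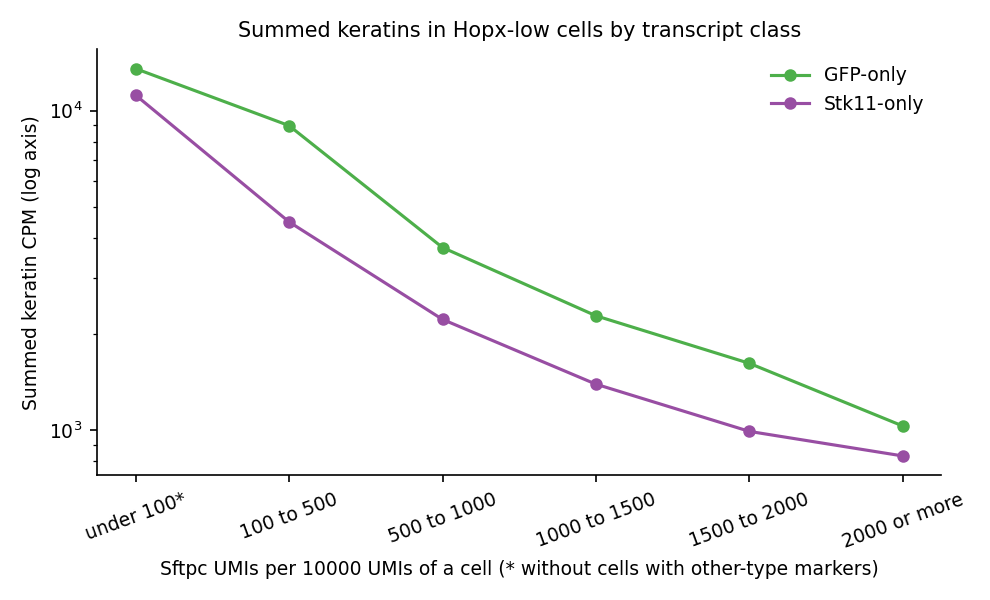
Summed keratin level (CPM, log axis, no intervals drawn) against Sftpc level in Hopx-low cells, for GFP-only and Stk11-only cells; the first point leaves out cells with markers of other types. GFP-only cells lay above Stk11-only cells in the strata from 500 to 2000 UMIs of Sftpc per 10000 by 1.63 to 1.68-fold.

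In Sftpc-mid cells the ratio of the sum was 1.54. It was 2.00 in Sftpc-mid Hopx-low cells (207 GFP-only and 53 Stk11-only), with Krt7 (2.45) and Krt19 (2.41) past 2-fold beside 4.07% of 8745 genes. Median depths there were 22715 UMIs in GFP-only and 14774 UMIs in Stk11-only cells, and the part of depth was not tested. The ratio of the sum was 1.25 in Sftpc-mid Hopx-mid and 1.20 in Sftpc-mid Hopx-high cells. In Sftpc-low cells the ratio was 1.72, and none of the 4 members was past 2-fold, beside 1.83% of 9020 genes. In Sftpc-low Hopx-low cells Krt8 and Krt18, both at 2.01, were past 2-fold beside 3.93% of 9247 genes, and both were at 1.23 without the cells with other-type markers. The sum was at 1.33 in Sftpc-low Hopx-mid and 1.32 in Sftpc-low Hopx-high cells. Markers of other types were carried by 22.6% of the Stk11-only and 0.602% of the GFP-only cells of the Sftpc-low bin. Without such cells the ratio of the sum was 1.34, from 1.20 for Krt7 to 1.40 for Krt8. Club markers summed to 9969 CPM in these Stk11-only and 13.0 CPM in these GFP-only cells, and without the club marker cells as well the ratio of the sum was 1.32. Type I chains held 49.7% of keratin UMIs in GFP-only and 54.4% in Stk11-only cells of the Sftpc-high Hopx-low bin. This gap was not seen at lower Sftpc. The shares in the same order were 48.8% and 48.1% in Sftpc-low, and 49.0% and 49.0% in Sftpc-mid cells. All 4 members were present in 60.1% of thinned GFP-only and 24.9% of thinned Stk11-only cells.

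Ordered by summed keratin level, cells in the lowest decile were at 114176 CPM of Sftpc and those in the second decile at 171063 CPM, from where Sftpc fell to 17175 CPM in the highest decile. The share of GFP-only cells went from 3.36% in the lowest to 54.3% in the highest decile. The lowest decile differed from the others in several ways: 31.7% of its cells carried other-type markers, its fibroblast markers summed to 9648 CPM, and 63.9% of its cells had neither GFP nor Stk11 at a median depth of 13431 UMIs, against 23666.5 UMIs in the highest decile. Without the cells with other-type markers, Sftpc was at 174565 CPM in the lowest decile, and GFP-only cells made up 4.68% of the lowest and 54.3% of the highest decile. The summed level of the transitional list (Cldn4, Sfn, Cdkn1a, Lgals3 and others, without keratins) was 982 CPM in the second and 8343 CPM in the highest decile. Hopx did not follow to the end: it peaked at 970 CPM in the ninth decile and was at 467 CPM in the highest. Mitochondrial UMIs went from 5.06% to 1.97%. Of the cells in the highest decile, 802 were Sftpc-low, 271 Sftpc-mid and 145 Sftpc-high.

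The members ranked with each other across cells. In thinned cells Spearman's rho was 0.64 for Krt8 with Krt18, 0.59 for Krt8 with Krt19, 0.57 for Krt7 with Krt8 and for Krt7 with Krt19, and 0.55 for Krt18 with Krt7 and with Krt19 (11084 cells of 1 pool of several libraries and mice, all thinned to the same depth). Of 7726 other genes with a UMI in at least 5% of cells, Krt18 was the gene most like Krt8 and Krt8 the gene most like Krt18. Within Sftpc-high cells the 6 pairs ranged from 0.31 to 0.43. In Sftpc-low Hopx-low cells they ranged from 0.84 to 0.94 with the cells of other types included, and from 0.57 to 0.78 in the 524 cells without them. In Sftpc-low Hopx-high cells Krt8 with Krt18 was at 0.60, whereas Krt7 with Krt18 was at 0.20.

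Outside the family, the gene most like the keratin sum was S100a6, a small calcium-binding protein, at rho 0.66. It was followed by cytoplasmic actin Actg1 (0.57), annexin Anxa3 (0.55), galectin Lgals3 (0.55), Crip2 (0.54), S100a14 (0.53), the tetraspanin Cd9 (0.53), clusterin Clu (0.53), Emp2 (0.52) and the EGF receptor ligand Areg (0.52). S100a6 led the list of each single member, at 0.62 for Krt7, 0.59 for Krt19, 0.58 for Krt8 and 0.55 for Krt18. The lowest values were those of 3 ATII genes, Lyz2 (-0.54), Slc34a2 (-0.53) and Sftpc (-0.53).

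Other keratins were minor. Of 45 further keratin symbols 31 had a UMI, and together they reached 118 CPM, or 3.46% of all keratin UMIs. Krt23, a type I chain, was the leading one at 80.5 CPM with a UMI in 56.0% of cells, and Krt10, of suprabasal epidermis, was at 18.4 CPM. Krt80 was at 7.24 CPM over all cells and at 35.1 CPM in Sftpc-low Hopx-high cells, with a Sftpc-low over Sftpc-high ratio of 7.21. Krt79 was at 23.7 CPM in Sftpc-low Hopx-low cells, with 24.6% of its UMIs in 10 cells, and Krt87 at 10.6 CPM in the same bin. The summed squamous and basal markers, which include Krt5, Krt14 and Krt17, were at 6.59 CPM in Sftpc-low Hopx-low and 0.147 CPM in Sftpc-low Hopx-high cells. Of the former, 5.93 CPM was Krt17, a keratin with 95.9% of its UMIs in 10 cells.

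Keratin filaments attach to desmosomes, to hemidesmosomes and to other filaments through plakins. Of 23 listed desmosome, plakin, linker and other filament genes, which included nuclear lamins and Vim, 18 reached 10 CPM in the Sftpc comparison. At 2-fold, 12 were higher and 0 lower in Sftpc-low cells, beside 17.3% of all tested genes higher. Without the cells with other-type markers 11 of 18 were higher, beside 13.0% of all tested genes. Itgb4, the hemidesmosomal integrin chain, was at 18.4 against 0.875 CPM. The ratio was 3.71 for Eppk1, 3.39 for Plec and 3.07 for Evpl, all plakins, and 3.05 for the nuclear lamin Lmna, and without the cells with other-type markers 4.33, 3.48, 3.71 and 3.25 in the same order. Vim, the filament protein of mesenchymal cells, had a ratio of 130 (539 against 4.13 CPM), which was 20.9 (38.8 against 1.86 CPM) without those cells.

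By Hopx, 11 of 18 of these genes were past 2-fold in neither direction in Sftpc-low cells. There 2 were at least 2-fold higher in Hopx-high cells, plakophilin Pkp2 (3.24) and Eppk1 (2.17), and 5 were lower, Dst, Itga6, Itgb4, Vim and Lmna. Of all 9262 tested genes 556 (6%) were higher and 13.8% lower. Without the cells with other-type markers 1 was higher (Pkp2, 2.33) and 7 lower, among them Itga6 (0.152) and Lmna (0.413), beside 6.85% higher and 7.41% lower over all tested genes. In Sftpc-high cells Pkp2 (2.53), Evpl (2.50) and Eppk1 (2.42) were higher and 0 lower in Hopx-high cells, of 16 tested and beside 7.11% of all tested genes. In the GFP-only against Stk11-only comparison of Sftpc-high cells, 1 of 15 was past 2-fold, Lmna, beside 2.19% of all tested genes.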

How the data were processed

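The authors aligned 10x Chromium 3′ v3 libraries with Cell Ranger 3.0.2 to mm10 with GFP and TdTomato added, and deposited raw UMI counts per gene and cell as 1 aggregated matrix, without normalization. Neoplastic cells of 3 Restored and 3 NonRestored mice were pooled in it. A further item of the shared genotype is not reported here. Columns were not tied to mice here, so the matrix was 1 sample and no test was run. The 16017 columns held 0 identical pairs, and cell barcodes were not analysed here.

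Cells under 500 genes (2081) or over 20% mitochondrial UMIs (1753) were left out. Doublets were not called and were kept. UMIs were summed per group of cells and expressed as CPM with exact Poisson intervals. Ratios had exact conditional binomial intervals and shares Clopper-Pearson intervals (all 95%), covering counting error only. Detection and correlations used cells thinned to 5000 UMIs with a fixed seed. A gene was called at a 2-fold ratio where either group had 10 CPM. A cell carried markers of another type with UMIs of at least 3 markers of a list and 10 UMIs of the list per 10000.

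Named genes were the 4 members and other keratins at 10 CPM in any bin (Krt5, Krt14 and Krt17 as squamous and basal markers). Genes of the desmosome, plakin, linker and filament list were named past 2-fold (up to 6 per comparison, with others named where a count was small). The 10 genes most like the sum (5 per member) and the 3 least like it were also named. Members, bins and lists were chosen with earlier results of these data known. The ratio code was tested on simulated data. Motifs were searched by exact letters in RefSeq windows (GRCm38.p6), and coordinates came from GENCODE M21, in which 31011 of 31055 feature IDs matched. The analysis was run in Python 3.11.15 with scipy 1.17.1, numpy 2.4.6 and pandas 2.3.3, and plots were drawn in matplotlib 3.10.9. Alternatives covered the cell filters, bin bounds, denominator, weighting of cells, thinning depth and the CPM minimum.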

Additional observations from a re-analysis of the deposited data

How the results depend on the processing

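No alternative turned the direction of the main comparisons. The log2 Sftpc-low over Sftpc-high ratio of the keratin sum (2.30) was 2.29 at 10% mitochondrial UMIs, 2.57 without other-type marker cells, 2.25 without the 2% deepest cells, 2.07 with Sftpc out of the denominator, 1.98 with equal weight per cell, 2.14 and 2.57 with Sftpc bounds of 50 and 250 or 200 and 1000, 2.31 without club marker cells, and 2.58 without club and other-type marker cells. Hopx-high over Hopx-low in Sftpc-low cells (-0.58) was in the same order of settings -0.59, -1.08, -0.45 and, with equal weight, -0.31, with Sftpc bounds -0.54 and -0.62, and -0.31 and -0.91 with Hopx bounds of 1 and 10 or 4 and 30, and -1.10 without club and other-type marker cells. In Sftpc-high cells (1.18) it was 1.30 with equal weight. The GFP-only over Stk11-only log2 ratio in Sftpc-high cells (1.06) was 0.99 with Sftpc out of the denominator, 1.15 and 0.86 with the other Sftpc bounds, and 1.07 with classes read after thinning. The type I share (49.7%) was 49.9% without the deepest cells and 50.8% as a median over cells. The share with all 4 members (39.1%) was 41.3% at 10% mitochondrial UMIs, 40.3% without other-type marker cells, 19.3% thinned to 2000 UMIs and 68.7% unthinned, so it depends on depth. Genes at least 2-fold higher in Sftpc-low cells numbered 1558, and 3445 at a minimum of 1 CPM. Turned by leaving out other-type marker cells were the Hopx-mid to Hopx-low ratio in Sftpc-low cells and the rank correlations with Hopx there. So was the order of the Hopx-low and Hopx-high shares with all 4 members in Sftpc-low cells. The club marker exclusions, the rank correlations and list counts without other-type cells, and the settings for Hopx in Sftpc-high cells were chosen after seeing the data. No paired analysis was possible because the columns were not tied to mice, and no result here comes from a test.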
